A study of Mus musculus with 10 samples.

Results

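The genes that drive and brake the cell-division cycle were followed through chromatin accessibility in naive CD4 T cells of mice with floxed Satb1, with and without tamoxifen. Peaks were taken whose annotated symbol is a cyclin (Ccna to Ccnl), a cyclin-dependent kinase (Cdk), a CDK inhibitor or other gene named Cdkn, an E2F transcription factor (E2f) or a minichromosome maintenance gene (Mcm). That gave 251 of 61581 peaks, assigned to 61 of 14287 gene symbols. The counts of 158 of these peaks, and of 60 of the genes after all peaks of a gene were summed, were high enough to test, whereas 93 peaks and Cdk14 were not. The untested peaks were narrow, with a median width of 87 bp against 276 bp for the tested ones, and held a median of 5.6 counts per library. A further 3 peaks carry the gene number of Cdk3 without a symbol and lie outside the rule. Peaks carry the name of the nearest gene in the deposited annotation, and whether a peak regulates that gene was not measured. Cdkn2aip and Cdkn2aipnl match the name rule and are kept with the CDK inhibitors. They are named for a protein that binds a product of the Cdkn2a gene and for a relative of it, not as inhibitors.

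The assay was ATAC-seq, in which the transposase Tn5 cuts and tags open chromatin, on 60000 naive T cells per library (CD3+CD4+CD25-CD44low/-CD62L+) from mouse spleen and lymph node. All mice had the genotype Satb1fl/fl x CD4-CreERT2wt/+, that is, floxed Satb1 alleles and a tamoxifen-dependent Cre recombinase under control of CD4. The 5 libraries of the group called KO came from mice treated with tamoxifen, and the 5 of the group called WT from untreated mice, so tamoxifen itself and loss of Satb1 cannot be told apart. The labels give no age and do not name the animals behind the libraries. The p-values therefore measure library-to-library spread, which may be technical.

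In resting cells CDK inhibitors and the pocket proteins hold the cycle in check. Mitogens raise D-type cyclins, which with CDK4 and CDK6 phosphorylate the retinoblastoma protein and free E2F factors. These switch on cyclin E, cyclin A and the MCM subunits of the replicative helicase, and later targets carry CCAAT boxes and cell-cycle homology regions (CHR) read by NF-Y and the MuvB complexes. Naive T cells are quiescent until their antigen receptor is engaged.

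Promoter sequence was available for 49 of the 61 genes (RefSeq, GRCm38.p6, 250 bases before to 50 after the start), and windows of 44 genes were overlapped by a peak of the same gene. Where a gene had several windows, the one that its start-site peak covered most was used. Both strands were searched for E2F sites (TTTCCCGC, TTTCGCGC, TTTGCCGC or TTTGGCGC), CCAAT, the CHR element TTTGAA and the E-box CACGTG, which MYC and other bHLH factors read. Overlapping E2F matches were counted separately, and matches of different motifs shared a base in 1 window, that of Mcm7. An E2F match lay in 9 of the 49 windows (18.4%), those of Cdk1, Cdk2, E2f2, E2f3, E2f7, Mcm3, Mcm5, Mcm6 and Mcm7, against 2.26% of all 32851 RefSeq windows. CCAAT lay in 29 (59.2%) against 37.4% of all windows, and in 7 of 7 MCM windows. TTTGAA lay in 10 (20.4%) against 17.9%, and the E-box in 6 (12.2%) against 7.15%. The windows of all genes were not picked 1 per gene or matched for openness, so these shares are a description and were not tested. A match is a description of the letters, not a bound site, and a window without one says nothing about the factor. The sequences below end at the base before the start site, run 5′ to 3′ on the gene's strand and carry the matches in capitals, those on the other strand as their reverse complement. They show 3 MCM promoters with E2F and CCAAT letters, 2 mitotic genes with CCAAT and CHR letters (Cdk1 also with E2F), Cdk4 with its 4 E-boxes, and Ccne1 and Ccnd3, which hold the highest summed accessibility of their families and none of these letters. All but the last pair were chosen after the matches and values had been seen.
Mcm6 (chr1:128359706-128359905, minus strand): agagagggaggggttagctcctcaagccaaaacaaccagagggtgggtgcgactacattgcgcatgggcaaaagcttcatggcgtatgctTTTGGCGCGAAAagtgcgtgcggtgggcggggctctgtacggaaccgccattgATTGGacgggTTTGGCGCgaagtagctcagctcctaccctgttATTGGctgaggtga
Mcm5 (chr8:75109309-75109508, plus strand): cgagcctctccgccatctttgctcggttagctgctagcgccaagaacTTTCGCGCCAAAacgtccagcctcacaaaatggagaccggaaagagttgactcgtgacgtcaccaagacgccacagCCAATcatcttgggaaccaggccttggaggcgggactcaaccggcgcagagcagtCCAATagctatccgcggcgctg
Mcm7 (chr5:138171884-138172083, minus strand): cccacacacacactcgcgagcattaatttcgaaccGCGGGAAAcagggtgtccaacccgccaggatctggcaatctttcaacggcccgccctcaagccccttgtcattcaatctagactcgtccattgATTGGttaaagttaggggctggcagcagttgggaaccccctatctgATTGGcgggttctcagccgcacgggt
Cdk1 (chr10:69352913-69353062, minus strand): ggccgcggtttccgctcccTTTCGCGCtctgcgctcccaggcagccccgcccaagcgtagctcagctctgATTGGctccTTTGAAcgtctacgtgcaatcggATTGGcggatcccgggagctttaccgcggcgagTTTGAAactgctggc
Ccnb2 (chr9:70421555-70421754, minus strand): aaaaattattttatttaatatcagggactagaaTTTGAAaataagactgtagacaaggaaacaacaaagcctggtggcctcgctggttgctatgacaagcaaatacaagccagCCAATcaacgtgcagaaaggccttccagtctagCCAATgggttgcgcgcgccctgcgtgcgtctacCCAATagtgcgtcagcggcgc
Cdk4 (chr10:127063335-127063534, plus strand): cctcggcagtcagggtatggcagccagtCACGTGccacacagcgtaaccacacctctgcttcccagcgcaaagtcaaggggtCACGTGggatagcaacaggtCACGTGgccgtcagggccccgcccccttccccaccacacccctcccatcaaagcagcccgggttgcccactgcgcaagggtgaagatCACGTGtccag
Ccne1 (chr7:38107491-38107640, minus strand): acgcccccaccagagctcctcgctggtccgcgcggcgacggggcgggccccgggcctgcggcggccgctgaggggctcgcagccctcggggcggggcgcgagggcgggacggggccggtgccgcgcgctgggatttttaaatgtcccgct
Ccnd3 (chr17:47504901-47505050, plus strand): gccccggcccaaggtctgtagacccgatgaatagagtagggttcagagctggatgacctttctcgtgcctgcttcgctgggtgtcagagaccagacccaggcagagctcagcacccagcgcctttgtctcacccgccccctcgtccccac

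In Mcm6 a pair of E2F matches overlapped and another lay nearer the start, and in Mcm5 a pair overlapped. The start-site peaks of the 9 genes with an E2F match had a median log2 fold change of 0.04 (KO against WT, range -0.17 to 0.30), and those of the 30 genes without one a median of -0.02 (range -0.43 to 0.18). Both ranges span 0, and these sets were formed after values were seen, so no test was run.

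Counts in peaks totalled 673398 to 2184717 per library, with a median of 5 to 17 counts per peak, and 58.4% to 61.5% of counts fell in promoter peaks. A chi-square test on peaks found 6 of 20 pairs of libraries of 1 group to differ by no more than sampling noise (chi-square per degree of freedom 0.956 to 0.993), against 1.04 to 1.38 for the other such pairs and 1.08 to 1.59 for pairs of a KO and a WT library. These were Sample_2268_KO with Sample_2270_KO, Sample_2271_KO with Sample_2272_KO, Sample_2274_WT with Sample_2275_WT, and Sample_2273_WT, Sample_2276_WT and Sample_2277_WT among themselves. Their totals differ, so none is a plain copy of another, but they may share a source. Means and tests below keep 5 libraries a group as labelled, and the values with such libraries counted as 1 sample (3 KO against 2 WT) are given with the called peaks. Satb1 itself, summed over its peaks, stood at 411 to 444 CPM in KO and 353 to 392 CPM in WT and was called higher in KO (log2 fold change 0.19 ± 0.05, edgeR adjusted p = 0.0245). Openness of the gene does not check its deletion, so the loss of Satb1 rests on the labels. Markers of CD4 T cells were open in all libraries (10 of 10 with peaks, summed level 1340 to 1395 CPM in KO and 1291 to 1387 CPM in WT). Markers of other cells were open in part: 6 of 8 myeloid markers had peaks (summed level 297 to 366 CPM in KO and 284 to 319 CPM in WT), as did 5 of 6 of NK and innate lymphoid cells (382 to 433 and 378 to 411 CPM) and 4 of 5 of stromal and endothelial cells (208 to 237 and 203 to 231 CPM). Summed levels were lower for CD8 T cells (2 of 2 markers with peaks, 23.4 to 33.3 and 26.5 to 31.8 CPM), B cells (4 of 8, 47.9 to 53.9 and 47 to 64.9 CPM) and erythroid cells (2 of 5, 53.6 to 79.3 and 57.4 to 68.9 CPM). The sums cover lists of unlike size, so they do not rank the cell types. Of these lists 0 tested genes passed by edgeR, and Ms4a1, Pax5, Ebf1, Csf1r, Lyz2 and Ncr1 were among the markers with no peak in the data analysed here. CPM here are counts-per-million of a library's TMM-scaled total in tested peaks.

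Accessibility of the cell-cycle genes was close to level between KO and WT. Of the 60 genes tested, 0 passed the edgeR quasi-likelihood test (Benjamini-Hochberg adjusted p under 0.05 over all 12489 genes, of which 2.19% were called), and DESeq2 and limma-voom called 0 as well. In all, 4 genes had an unadjusted p under 0.05 (6.67%, against 12.5% of all genes tested), with Cdk4, Ccne1 and Ccnk lower and Cdk17 higher. The log2 fold changes of the 60 genes ran from -0.26 (Cdk4) to 0.27 (Cdk10), 31 above 0 and 29 below it, with a median size of 0.07 against 0.09 for all genes and a median SE of 0.08. In 1 gene, Cdk19, every KO library lay above every WT library (1.67%, against 3.23% of all genes). Its sum includes a peak called in the peak fit below.

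**Figure D1:**
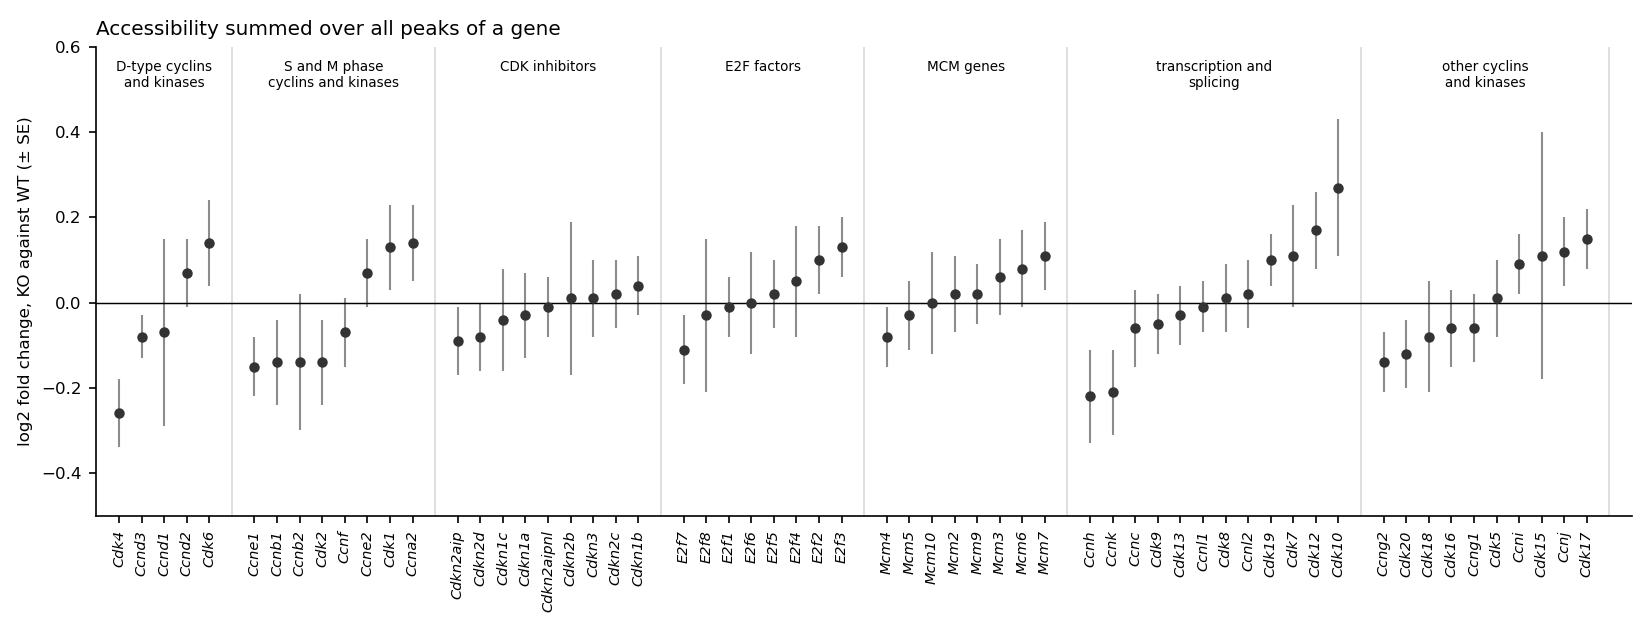
Log2 fold change of accessibility summed over all peaks of each of 60 genes, KO against WT, by family; points are edgeR estimates from 5 KO and 5 WT libraries and bars are 1 SE. Values lie between -0.26 (Cdk4) and 0.27 (Cdk10), and none passed the test over all genes.

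At the level of single peaks 4 of 158 passed (2.53%, against 3.85% of all 34910 tested peaks). An intronic peak of Cdk19, a promoter peak of Cdkn2aipnl and a distal peak of Cdk17 were higher in KO (3 peaks, against 2.94% of all peaks called higher), and a promoter peak of Ccng2 was lower (1 peak, against 0.911% called lower). Among peaks annotated as promoter 2 of 94 were called (2.13%, against 1.6% of all promoter peaks), and among the others 2 of 64 (3.12%, against 5.8%). At an unadjusted p under 0.05 stood 19 peaks (12%, against 13.6%), 10 of them higher in KO. The libraries of the groups did not overlap in 5 peaks (3.16%, against 3.96%), 3 higher and 2 lower. The called share was thus below that of all peaks in total and outside promoters, and above it in promoter peaks. These shares rest on 4, 2 and 2 calls, too few to read any of them as a difference from all peaks. The shares over all features, 3.85% of peaks and 2.19% of genes called, also stand beside the counts per family below. The median size of the log2 fold change was 0.11 in these peaks and 0.14 in all tested peaks.

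**Figure D2:**
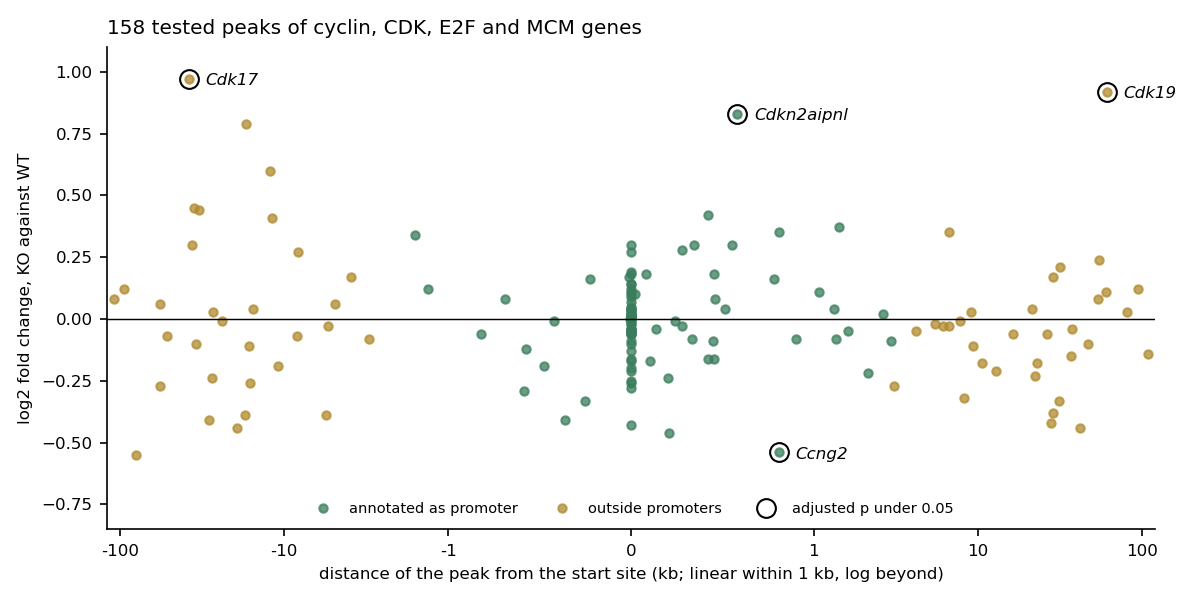
Log2 fold change (KO against WT) of the 158 tested peaks against distance from the annotated start site in kb, linear within 1 kb and log beyond; green peaks are annotated as promoter, yellow ones lie outside promoters, and rings mark the 4 peaks with an adjusted p under 0.05. The peaks at distance 0 lie within 0.43 of no change, and the called ones at Cdk17, Cdkn2aipnl, Cdk19 and Ccng2 lie away from the start site.

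The peak over the start site carried much of the signal: 49 genes had one, all 49 were tested, and together they held 53.4% of the WT counts of the 251 peaks. By edgeR 0 of the 49 were called, against 1.6% of all promoter peaks, a share at which 0 is no unusual count. The DESeq2 and limma-voom tests also called 0. An unadjusted edgeR p under 0.05 was found for 5 of the 49: E2f3 and Mcm7 were higher and Cdk4, Ccnd3 and Ccng2 lower. The share over all tested peaks was 13.6%, and that over promoter peaks alone was not computed. The log2 fold changes of the 49 had a median of 0.00, 26 above 0, and a largest size of 0.43, that of Ccnd3. Per kb of peak, the highest level in WT was at Cdkn2d, with 253 CPM per kb (248 in KO). Cdk13 followed with 220 (217 in KO), Ccne1 with 194 (191 in KO) and Cdk5 with 175 (172 in KO). The lowest were E2f6 with 62.6 (62.0 in KO), Cdk10 with 54.3 (68.9 in KO) and Cdkn2b with 43.4 (40.6 in KO). Neighbours in this order mostly lie within the spread of their libraries, so the order separates the ends, not adjacent genes. The inhibitor genes thus stood at both ends, Cdkn2d (p19) first and Cdkn2b (p15) last of 49.

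**Figure D3:**
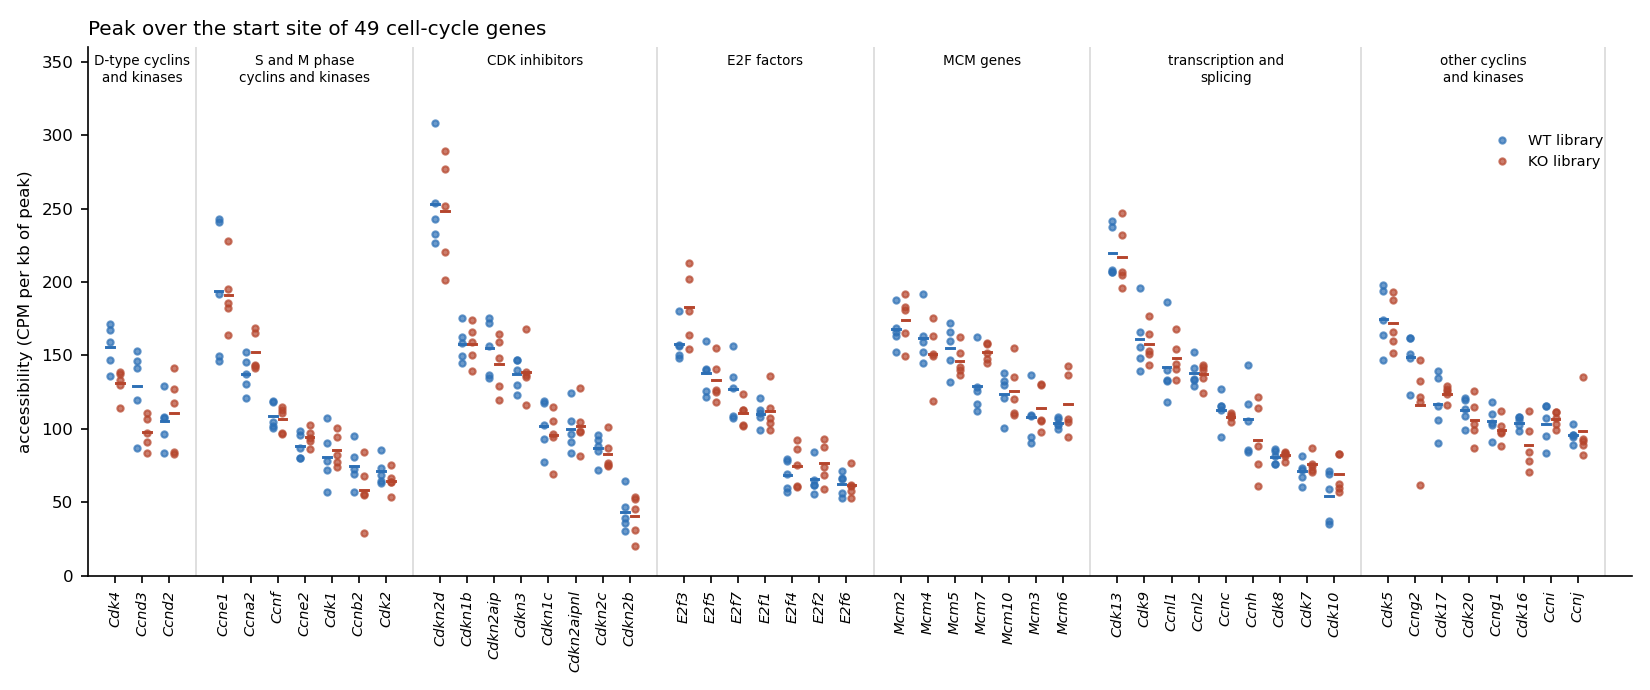
Accessibility of the peak over the start site of 49 genes, in CPM per kb of peak, by family and ordered by WT level; points are libraries (5 WT in blue, 5 KO in red) and short lines are group means. KO and WT points overlap in each of the 49 genes, with Cdkn2d highest at 253 in WT and Cdkn2b lowest at 43.4.

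Cdk4, the kinase partner of D-type cyclins, came nearest to a call among the genes. Its only peak (chr10:127063207-127063947, over the start site) had 103, 96.0, 102, 98.9 and 84.8 CPM in Sample_2268_KO to Sample_2272_KO and 124, 109, 101, 127 and 118 CPM in Sample_2273_WT to Sample_2277_WT. All KO libraries but Sample_2268_KO and Sample_2270_KO lay below every WT library, and the lowest WT library, Sample_2275_WT, lay within the KO range. The means were 96.9 ± 7.29 CPM in KO against 116 ± 10.6 in WT (SD, n = 5), a log2 fold change of -0.26 ± 0.08 (SE) with an edgeR adjusted p of 0.0600 in the gene fit and 0.112 in the peak fit. The two-sided exact permutation test over all assignments of the 10 libraries to the groups gave p = 0.0238. Here and below the permutation p is unadjusted and takes the 5 libraries of a group as separate samples. At peaks named because edgeR called them it is no independent support. Leaving out Sample_2275_WT turned it into a call (log2 fold change -0.31, edgeR adjusted p = 0.0257), and it was a call in none of the other 20 alternatives tried on the gene. With libraries within noise counted as 1 sample the peak stood at 96.8 ± 5.57 CPM (SD, n = 3) against 114 ± 12.5 CPM (SD, n = 2). The edgeR adjusted p so merged was 0.241 in the gene fit and 0.413 in the peak fit, farther from a call. This is the promoter printed with 4 E-boxes, all of which lie inside the peak.

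None of the D-type cyclins or Cdk6 passed either. Ccnd3, which encodes the cyclin D3 used by lymphocytes, held the highest summed accessibility of the 61 genes, with 370 ± 7.59 CPM in WT and 351 ± 15.8 CPM in KO (SD, n = 5; log2 fold change -0.08 ± 0.05, edgeR adjusted p = 0.566, exact permutation p = 0.0476) over 15 peaks that run from the start site to 38 kb into the gene. Its start-site peak is narrow (172 bp) and had 18.4, 15.6, 16.7, 14.4 and 19.0 CPM in KO and 20.6, 24.3, 25.1, 15.0 and 26.3 CPM in WT. Only Sample_2276_WT fell within the KO range, and the difference did not pass (log2 fold change -0.43 ± 0.17, edgeR adjusted p = 0.181). The 4 broad peaks of Ccnd3 farther in, at 2938, 6099, 16421 and 26356 bp from the start, each lay within 0.09 of no change on the log2 scale. Ccnd2 (cyclin D2) had a log2 fold change of 0.07 ± 0.08 and Cdk6 0.14 ± 0.10. Ccnd1 (cyclin D1), which resting T cells hardly use, was the least accessible D-type gene, at 13.1 ± 2.15 CPM in WT and 11.9 ± 2.98 CPM in KO, and had no start-site peak. Of the 20 tested peaks of these 5 genes 0 were called, and 2, the start-site peaks of Cdk4 and Ccnd3, stood at an unadjusted p under 0.05, both lower in KO.

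Among the cyclins and kinases of S phase and mitosis, 0 of 8 genes and 0 of 18 peaks were called by edgeR, and 1 gene and 2 peaks, all lower, stood at an unadjusted p under 0.05. Ccne1, whose product cyclin E1 takes CDK2 into S phase, was the most accessible at 334 ± 45.5 CPM in WT and 300 ± 36.3 CPM in KO (SD, n = 5; log2 fold change -0.15 ± 0.07, edgeR adjusted p = 0.301). Its start-site peak was level (log2 fold change 0.00 ± 0.11), and its broadest peak lay 22082 bp away, past the 3' end of the gene, at 143 ± 28.7 CPM in WT and 124 ± 31.2 CPM in KO. That distal peak varied more within each group than between the groups, and its higher libraries were those of 2 of the sets within sampling noise. It had 140, 90.7, 170, 112 and 108 CPM in Sample_2268_KO to Sample_2272_KO and 164, 108, 115, 167 and 159 CPM in Sample_2273_WT to Sample_2277_WT. Ccna2 (cyclin A2, S phase and mitosis) had its single peak over the start site, at 76.4 ± 6.81 CPM in KO against 69.0 ± 6.16 in WT (log2 fold change 0.14 ± 0.09). Cdk1, the mitotic kinase, had a start-site peak of 39.3 ± 5.13 CPM in KO against 37.1 ± 8.77 in WT. For Ccnb1 (cyclin B1) the peak nearest the start was level, at 37.7 ± 4.99 and 38.7 ± 1.21 CPM. Its intron-annotated peak at -19322 bp had 14.4 ± 3.64 CPM in KO against 20.5 ± 3.08 in WT without passing (edgeR adjusted p = 0.185). Ccnf, which encodes an F-box protein, had a start-site log2 fold change of -0.04 ± 0.09.

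The E2F and MCM genes were level as well. Of the 8 E2F genes and their 15 tested peaks 0 were called by edgeR, with 0 genes and 2 peaks at an unadjusted p under 0.05. E2f3, an activator, had the largest summed fold of the family (log2 0.13 ± 0.07). Its start-site peak had 118, 85.5, 112, 100 and 90.8 CPM in KO and 86.9, 86.7, 82.0, 100 and 83.1 CPM in WT. The groups overlapped, and the log2 fold change of 0.19 ± 0.09 did not pass (edgeR adjusted p = 0.343). E2f1, the best-known activator, was at 113 ± 14.4 CPM in KO against 111 ± 7.87 in WT over its only peak. E2f7, an atypical repressor, was at the low end with a summed log2 fold change of -0.11 ± 0.08, and E2f2 at 0.10 ± 0.08.

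All 8 MCM genes had open promoters, and 0 of 8 genes and 0 of 14 peaks were called by edgeR, with 0 genes and 1 peak at an unadjusted p under 0.05. That peak was the start-site peak of Mcm7, a helicase subunit, with 59.2, 55.3, 56.7, 54.2 and 58.9 CPM in KO and 60.8, 48.0, 47.0, 43.6 and 41.9 CPM in WT. Every KO library lay above all WT libraries but Sample_2273_WT, which was the highest of all. The log2 fold change was 0.27 ± 0.10 (edgeR adjusted p = 0.170), and over both its peaks Mcm7 was at 0.11 ± 0.08. Mcm4 had a broad start-site peak (809 bp) at 131 ± 14.5 CPM in WT and 123 ± 17.0 CPM in KO. Per kb of peak Mcm2 and Mcm4 were close, at 168 and 162 CPM per kb in WT and 174 and 151 in KO. Mcm6, whose promoter carries 3 E2F matches, was at 66.8 ± 12.3 CPM in KO against 59.5 ± 1.9 in WT. Mcm5, with 2, was at 57.5 ± 4.11 and 61.0 ± 6.35 CPM. Mcm9, which acts in repair rather than in the replicative helicase, had a log2 fold change of 0.02 ± 0.07.

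By gene sums the CDK inhibitors were the most even family, with the log2 fold changes of its 9 genes between -0.09 and 0.04. By edgeR 0 genes were called, and 0 stood at an unadjusted p under 0.05. Its single peaks were not more even than others: 4 of 27 tested stood at that p, against 13.6% of all tested peaks. Cdkn1b (p27), the inhibitor typical of resting T cells, had a start-site peak of 92.6 ± 7.96 CPM in KO against 93.0 ± 6.98 in WT (log2 fold change 0.00 ± 0.09). Cdkn2d was at 118 ± 17.7 and 121 ± 15.6 CPM over the start site. Cdkn1a (p21), a target of p53, had no peak over its annotated start and stood at 62.1 ± 4.03 CPM in KO against 62.3 ± 8.05 in WT over both its peaks. Cdkn2aip had a summed log2 fold change of -0.09 ± 0.08.

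The 1 called peak among the 27 tested of this family lay at Cdkn2aipnl, 581 bp downstream of the start site (chr11:51968212-51968434, annotated as promoter). It had 17.6, 12.5, 11.7, 14.4 and 17.0 CPM in KO and 10.9, 8.28, 8.36, 9.29 and 6.76 CPM in WT, so every KO library lay above every WT library. The means were 14.6 ± 2.63 and 8.71 ± 1.51 CPM (SD, n = 5), a log2 fold change of 0.83 ± 0.22 (edgeR adjusted p = 0.0107, exact permutation p = 0.00794, the smallest the assignments can give). The call ended with DESeq2 (adjusted p = 0.326) and without Sample_2272_KO (edgeR adjusted p = 0.0692), and stood with libraries within noise merged (14.6 ± 1.83 CPM, n = 3, against 8.50 ± 0.259 CPM, n = 2; adjusted p = 0.0254). The start-site peak next to it was level, at 50.0 ± 8.21 CPM in KO against 49 ± 7.67 in WT. Summed over its 11 peaks the gene was at 154 CPM in both groups. A weak peak at -5570 bp was lower in every KO library (5.93 ± 2.01 against 8.75 ± 0.824 CPM) but did not pass (edgeR adjusted p = 0.594).

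Cyclins and kinases of transcription and splicing gave the most significant peak, and 0 of their 12 genes were called by edgeR (1, Ccnk, lower at an unadjusted p under 0.05). Cdk19 encodes a kinase of the Mediator complex and is the close relative of Cdk8. The called peak lies in intron 2 of 11, 60797 bp from the annotated start (chr10:40400361-40400648). It had 22.4, 18.8, 20, 25.0 and 25.0 CPM in KO and 14.1, 16, 9.40, 10.7 and 11.5 CPM in WT, with no overlap between the groups. The means were 22.2 ± 2.83 and 12.3 ± 2.67 CPM (SD, n = 5), a 1.89-fold difference (log2 0.92 ± 0.18, edgeR adjusted p = 0.000217, exact permutation p = 0.00794). It was the only member peak that DESeq2 called (adjusted p = 0.0459), and it was called in 18 of 19 alternatives, the exception being libraries thinned to the smallest total (0.0533). Merged libraries gave 21.8 ± 3.10 CPM (n = 3) against 12.2 ± 0.544 CPM (n = 2; adjusted p = 0.000909).

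The other 5 tested peaks of Cdk19 did not pass. The strongest, annotated as 5' UTR 9025 bp from the start, had 175 CPM in KO against 169 in WT (log2 fold change 0.03 ± 0.09), and the intronic peak 80291 bp from the start 23.1 and 23.4 CPM. Summed over 18 peaks the gene was at 296 ± 13.3 CPM in KO against 276 ± 5.82 in WT. Every KO library (286 to 319 CPM) lay above every WT library (268 to 284 CPM), but the log2 fold change of 0.10 ± 0.06 did not pass (edgeR adjusted p = 0.493). This sum includes the called peak (22.2 CPM in KO against 12.3 in WT), so it shows no separate gain elsewhere at the gene. Its relative Cdk8 was level at 0.01 ± 0.08. Cdk12, a kinase of elongating RNA polymerase II, had 87.9 ± 10.8 CPM in KO against 77.0 ± 9.60 in WT (log2 fold change 0.17 ± 0.09, edgeR adjusted p = 0.423). Ccnk, the cyclin of CDK12 and CDK13, had -0.21 ± 0.10 (adjusted p = 0.342), and Ccnh, of the CDK-activating kinase, -0.22 ± 0.11 (adjusted p = 0.419). Ccnl1, a cyclin of splicing kinases, was level over its 9 peaks (-0.01 ± 0.06). Of those, the one at -17165 bp did not overlap between groups (10.0 ± 3.02 CPM in KO, 5.55 ± 1.2 CPM in WT) and missed the threshold (edgeR adjusted p = 0.103).

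The remaining cyclins and kinases held a call in each direction. Ccng2 encodes cyclin G2, an unusual cyclin that is high in quiescent cells. Its promoter is split into 4 tested peaks, and the called one lies 809 bp downstream of the start (chr5:93268382-93268567). It had 16, 17.7, 15.0, 17.0 and 17.5 CPM in KO and 18.5, 29.8, 26.6, 19.3 and 24.3 CPM in WT, again without overlap, though Sample_2273_WT and Sample_2276_WT lay within 2 CPM of the KO libraries. The means were 16.6 ± 1.13 and 23.7 ± 4.82 CPM (SD, n = 5), a log2 fold change of -0.54 ± 0.16 (edgeR adjusted p = 0.0399, exact permutation p = 0.00794). Along the promoter the log2 fold changes were 0.16 ± 0.11 at -226 bp, -0.28 ± 0.13 over the start, -0.16 ± 0.11 at 419 bp and -0.54 at 809 bp, and only the last passed. The sum over the gene was 139 ± 10.0 CPM in KO against 150 ± 9.68 in WT (log2 fold change -0.14 ± 0.07, edgeR adjusted p = 0.415). The call held in 5 of 19 alternatives. It ended with DESeq2 (0.562), limma-voom (0.0737), merged libraries (0.0671; 16.9 ± 1.08 CPM, n = 3, against 24.6 ± 5.04 CPM, n = 2), TMM factors from promoter peaks (0.0554), thinning (0.176), without the 3 libraries of lowest total (0.0520), without any 1 KO library (edgeR adjusted p 0.0537 to 0.0879), and without Sample_2274_WT (0.197), Sample_2275_WT (0.118) or Sample_2277_WT (0.0524).

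Cdk17 encodes a kinase of the PCTAIRE group. The called peak lies at -37872 bp from its start (chr10:93122873-93123004, distal intergenic) and is thin, with a mean of 10.2 counts per library. It had 4.80, 14.6, 10.0, 10.6 and 9.48 CPM in KO and 4.35, 3.86, 3.13, 4.29 and 9.46 CPM in WT. Sample_2268_KO lay among the WT libraries and Sample_2277_WT among the KO libraries. The means were 9.90 ± 3.49 and 5.02 ± 2.53 CPM (SD, n = 5; log2 fold change 0.97 ± 0.30, edgeR adjusted p = 0.0451, exact permutation p = 0.0159). The call held in 6 of 18 alternatives and ended with DESeq2 (0.503), limma-voom (0.0684), merged libraries (0.0945; 10.4 ± 4.07 CPM, n = 3, against 4.90 ± 2.00 CPM, n = 2), without the 3 libraries of lowest total (0.320) and without any 1 library other than Sample_2268_KO and Sample_2277_WT (edgeR adjusted p 0.0756 to 0.195). A stronger peak at -36254 bp had 38.8 ± 5.21 CPM in KO against 32.1 ± 4.11 in WT without passing (adjusted p = 0.224), and the start-site peak had 60.9 ± 2.44 and 57.5 ± 9.90 CPM. Ccnj, a little-studied cyclin, had a summed log2 fold change of 0.12 ± 0.08.

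**Figure D4:**
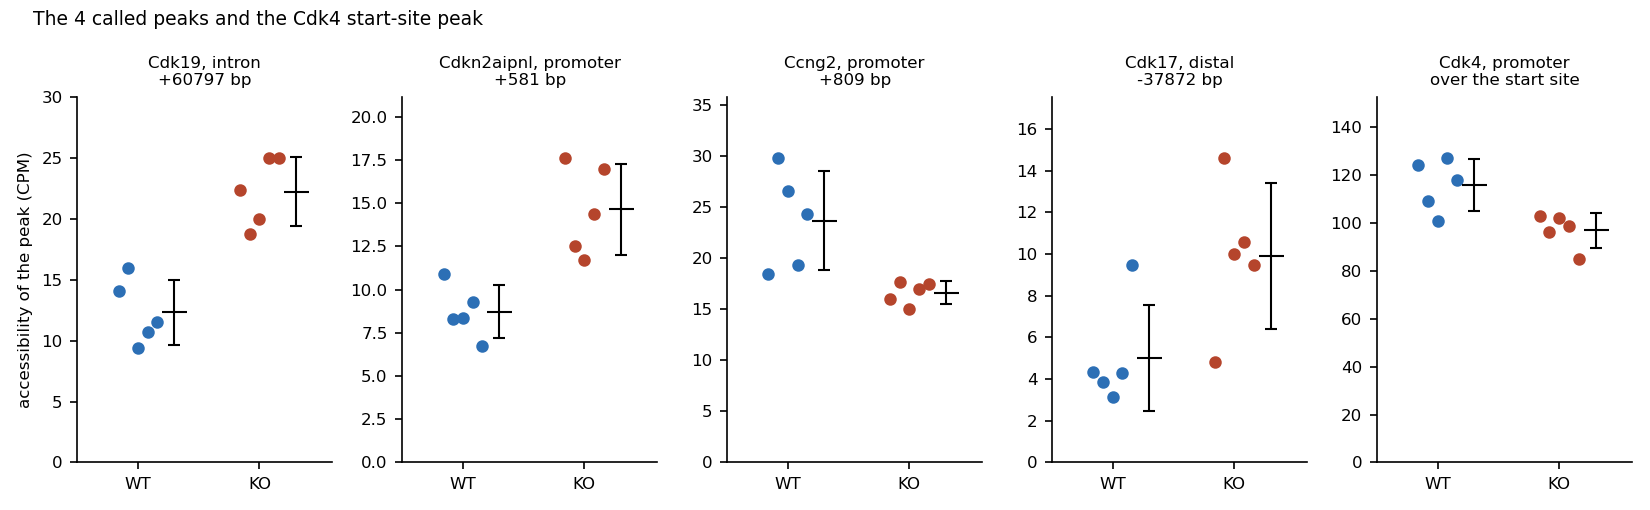
Accessibility in CPM of the 4 called peaks and, for comparison, of the Cdk4 start-site peak, which was not called; points are libraries (5 WT in blue, 5 KO in red), and bars give mean ± SD. At Cdk19, Cdkn2aipnl and Ccng2 the groups do not overlap, at Cdk17 one library of each group lies with the other, and the Cdk4 groups overlap.

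Partners of these genes, taken from lists written beside the family lists, gave 0 called genes of 11 tested for the pocket proteins, DP factors and DREAM or MuvB subunits, 0 of 16 for origin licensing and firing, 0 of 15 for CDK phosphatases, kinases, adaptors and ubiquitin ligases, and 0 of 14 for S and M phase effectors (edgeR; 0 also by DESeq2 and limma-voom). Of all genes tested by edgeR, 2.19% were called. At an unadjusted p under 0.05 stood 4 of the 56 (7.14%, against 12.5% of all genes): Rbl2, Cdc25b and Aurkb higher and Tfdp1 lower. Their list medians lay between 0.01 and 0.05 on the log2 scale, against -0.01 for all genes. Of their 132 tested peaks 6 were called (4.55%, against 3.85% of all tested peaks), 5 higher (3.79%, against 2.94%) and 1 lower (0.758%, against 0.911%), shares near those of all peaks. Rb1, the retinoblastoma gene itself, had an intronic peak 35543 bp from its start (chr14:73289933-73290248) at 14.9 ± 3.19 CPM in KO against 5.20 ± 1.57 in WT (SD, n = 5; 3.07-fold, edgeR adjusted p = 1.45e-06). The KO libraries ran from 10.4 to 19.0 CPM and the WT libraries from 3.57 to 7.61 CPM. A pair of neighbouring peaks carry the symbol of Rbl2 (p130) but lie far from its start, at -115005 and -114532 bp, and are annotated as 5' UTR. They were 2.36-fold and 1.63-fold higher, at 20.6 against 8.18 CPM and 22.3 against 13 CPM. The Rbl2 sum, 160 ± 4.26 CPM in KO against 141 ± 11.9 in WT, includes both peaks. Its rise is no larger than theirs, so it shows no gain elsewhere at the gene. Skp1a, an SCF ubiquitin ligase subunit, had an intronic peak 1.9-fold higher (36.4 ± 5.06 against 19.5 ± 4.21 CPM) and a distal one lower (41.0 ± 3.65 against 54.7 ± 6.96 CPM). A distal peak annotated to Cdc7, the kinase that fires origins, also lies far from its gene's start, at 114859 bp. It was 1.80-fold higher (21.6 ± 4.80 against 12.7 ± 2.93 CPM). With libraries within noise merged Rb1 stood at 14.1 ± 3.67 CPM (n = 3) against 5.05 ± 0.445 CPM (n = 2; edgeR adjusted p = 7.13e-06). The adjusted p so merged was 2.15e-05 and 0.0181 at Rbl2, 0.00381 at Cdc7, 3.12e-05 at the intronic Skp1a peak and 0.0552 at the distal one. The Rb1 peak, the farther Rbl2 peak and the intronic Skp1a peak were called in every alternative that tested them (18, 18 and 19). The nearer Rbl2 peak lost its call with DESeq2 (0.194), thinning (0.153) and without the 3 libraries of lowest total (0.136), the Cdc7 peak with DESeq2 (0.125) and thinning (0.811), and the distal Skp1a peak with DESeq2 (0.256), thinning (0.423), merging and without Sample_2275_WT (0.0930). The largest of these folds was thus at 1 peak of Rb1, outside the 251 peaks of the cyclin, CDK, E2F and MCM genes. Summed over its peaks Rb1 stood at 119 ± 15 CPM in KO against 111 ± 2.73 in WT and did not pass (log2 fold change 0.14 ± 0.07, edgeR adjusted p = 0.426).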

How the data were processed

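The deposited count table of the authors holds whole-number reads per peak of 1 common peak set, not normalized, and a second deposited file annotates the peaks. Per the submitters' processing notes the tools included Bowtie2 2.3.5 (aligner), MACS2 2.1.2 (peak caller) and ChIPseeker 1.18.0 (annotation), with build mm10, in which coordinates are given. The notes also name Picard, SAMtools and deepTools without a role; cut-site shifting and duplicate removal are not given in the sources used here, and either could move counts of dense peaks.

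Counts were fitted over all peaks, and over all gene symbols after summing, with edgeR 4.0.16 in R 4.3.3 (glmQLFit, glmQLFTest, TMM scaling, filterByExpr, Benjamini-Hochberg adjustment, threshold 0.05). Alternatives used DESeq2 1.42.0 and limma-voom 3.58.1, among others. SE was derived from the F statistic and is approximate. Scripts were tested on simulated data. Libraries were compared in pairs by chi-square over peaks with at least 20 counts. The members and lists were chosen with earlier results of these data known. Named genes were those with a called peak and, per family, up to 3 with the smallest p and 2 with the highest CPM; start-site levels of other genes, and single peaks without overlap, were named after their values were seen. Sums over families were not tested. Intervals and SDs cover these libraries only.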

Additional observations from a re-analysis of the deposited data

Results flagged for a closer look

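In 6 of 118 groups of 5 libraries examined, 1 library lay far from the other 4 for its group's range, and chance alone flags about 1 in 20 groups. The distal Cdk17 peak had 9.46 CPM in Sample_2277_WT against 4.35 CPM in the next WT library, which is the library that brings the groups into overlap at this called peak. The start-site peak of Ccnj had 65.7 CPM in Sample_2269_KO against 45.0 CPM in the next KO library. The start-site peak of E2f3 had 100 CPM in Sample_2276_WT against 86.9 CPM in the next. Summed over their peaks, Cdkn2d had 159 CPM in Sample_2276_WT against 133 CPM, E2f2 97.9 CPM in the same library against 92.4 CPM, and Cdk19 319 CPM in Sample_2269_KO against 295 CPM. In 3 of the 6 the library was Sample_2276_WT.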

How the results depend on the processing

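Of 58 named genes and peaks, 34 kept their direction in every alternative run. Only Cdk4 gained a call, without Sample_2275_WT, both as a gene (edgeR adjusted p = 0.0257) and as its start-site peak (0.0441). Peaks called higher in KO numbered 3 and fell to 2 with limma-voom, merged libraries or without the 3 libraries of lowest total (Cdk17 lost), 1 with DESeq2, 0 with a mean count of at least 50 and 0 after thinning (1 to 3 when 1 library was left out). Peaks called lower numbered 1 and fell to 0 with TMM factors from promoter peaks, DESeq2, limma-voom, merged libraries, a mean count of at least 50 or thinning (0 to 1 when 1 library was left out). Without the 3 libraries of lowest total Ccng2 lost its call and a Ccnk peak at -80147 bp was the 1 called lower (log2 fold change -0.79, edgeR adjusted p = 0.0247). A mean count of at least 50 leaves out the 4 called peaks by construction. Genes called lower numbered 0 (0 to 1 when 1 library was left out), and genes called higher 0 throughout.
The remaining changes of sign are of uncalled values near 0, and their cause was not tested. As log2 fold changes they were, with DESeq2, -0.02 at the Ccne1 and -0.01 at the Cdkn1b start-site peak, and with RLE scaling -0.00 at both. Without a count filter they were -0.02 at the Ccne1, -0.01 at the Ccnj and -0.01 at the Cdkn1b start-site peak. With TMM factors from promoter peaks the Ccnb1 peak at -6 bp, the E2f1 start-site peak and the Ccnl1 sum were at 0.00, and with a mean count of at least 50 the first and second were at 0.01. Merged libraries gave -0.00 at the Cdkn1b and limma-voom -0.00 at the Ccnj start-site peak. Promoter peaks alone gave 0.01 for Ccnl1 and 0.10 for Cdkn2aipnl, and peaks outside promoters -0.09 for Cdkn1b and 0.02 for E2f7. Thinning gave start-site values of -0.03 for Ccne1 and Ccnl1, -0.15 for Cdkn1b, 0.04 for Cdkn2aip and 0.18 for Cdkn2aipnl, and sums of 0.01 for Ccnd3, -0.06 for Cdk6, -0.09 for Cdkn1b, 0.02 for Cdkn2aip and Mcm4 and -0.04 for Mcm9. Without the 3 libraries of lowest total the start-site values were -0.10 for Ccnj, -0.02 for Cdkn1b and -0.06 for Mcm6, the Mcm9 peak at 139 bp was at 0.00, and the sums of Ccnl1 and Mcm6 were 0.02 and -0.03. Leaving out 1 library at a time gave start-site ranges of -0.11 to 0.20 for Ccnd2, -0.10 to 0.11 for Ccne1, -0.08 to 0.01 for Ccnf, -0.10 to 0.05 for Ccnj, -0.04 to 0.04 for Cdkn1b, -0.10 to 0.07 for Cdkn2aipnl, -0.09 to 0.04 for Cdkn2d and -0.06 to 0.03 for E2f1. It gave -0.04 to 0.02 for the Ccnb1 peak at -6 bp and -0.09 to 0.01 for the Mcm9 peak at 139 bp. The sums ranged from -0.03 to 0.02 for Ccnl1, -0.03 to 0.03 for Cdkn2aipnl, -0.05 to 0.02 for E2f1 and -0.02 to 0.06 for Mcm9. No paired analysis was possible because the labels give the groups no shared replicate numbers. Low counts kept 93 of the 251 peaks from being tested. The median SE of a tested peak, which holds counting error and library spread together, was 0.18 on the log2 scale, against 0.08 for a gene.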

Other observations

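The level of Ccne1, and of some other genes, varied between libraries in a way the groups do not follow. Summed over its 11 peaks it stood at 329 CPM in Sample_2268_KO, 345 CPM in Sample_2270_KO, 368 CPM in Sample_2273_WT, 373 CPM in Sample_2276_WT and 359 CPM in Sample_2277_WT. In the other 5 libraries it stood at 255 CPM (Sample_2269_KO), 289 CPM (Sample_2271_KO), 284 CPM (Sample_2272_KO), 288 CPM (Sample_2274_WT) and 282 CPM (Sample_2275_WT). The 5 libraries with the higher values are those of 2 of the sets that differed by no more than sampling noise. The share of counts in promoter peaks was 60.4%, 60.4%, 61.3%, 61.5% and 60.1% in these 5 and 59.5%, 58.4%, 59.7%, 58.8% and 59.8% in the other 5, in the same order. The part of that share in the level of Ccne1 was not tested. The start-site peak of Cdkn2d was likewise at 132, 138, 121, 147 and 116 CPM in the first set and at 96.0, 120, 105, 108 and 111 CPM in the second, which overlap by 1 library each. The sums of Mcm4 and Cdkn2aip also split between these sets, without overlap. Mcm4 was at 153, 140, 140, 165 and 143 CPM in the first set and at 105, 133, 134, 132 and 130 CPM in the second. Cdkn2aip was at 154, 148, 163, 166 and 149 CPM against 114, 141, 125, 130 and 127 CPM. The split is thus not particular to Ccne1, and how many genes follow it was not counted.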
